A study of Homo sapiens with 4 samples.

Results

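The 116 genes described here encode the nuclear subunits and assembly factors of the mitochondrial respiratory chain, including the ATP synthase, among 19927 protein-coding genes of GENCODE release 29. They were chosen by symbol: NDUF genes for complex I, SDHA to SDHD and the SDHAF genes for complex II, UQCR, UQCC and CYC1 for complex III, COX followed by a number for complex IV, and ATP5 for the ATP synthase. Complex I counted 37 genes and 8 assembly factors, complex II 4 and 4, complex III 10 and 3, complex IV 19 and 9, and the ATP synthase 20. The other 2 are readthrough transcripts, ATP5MF-PTCD1 and NDUFC2-KCTD14, which had no counted read and were kept apart. What was measured is spliced RNA bound to chromatin in K562, a human erythroleukaemia line. There were 2 libraries of SF3B1 K700E cells and 2 of wild-type cells, all harvested at day 4 under a shared treatment text that names doxycycline at 1 µg/ml to switch on the modified allele. Chromatin was extracted from all 4 in buffers that held 25 µM α-amanitin, an inhibitor of RNA polymerase II. The labels leave unsaid whether wild-type cells held an inducible construct or were given doxycycline, and whether either line is 1 clone. SF3B1 is the U2 snRNP protein that contacts the branch point region when a 3′ splice site (acceptor) is recognised, and K700E is its recurrent substitution in myeloid disease.

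The respiratory chain passes electrons from NADH (complex I) and succinate (complex II) through complex III to oxygen at complex IV, and the proton gradient that complexes I, III and IV build drives the ATP synthase. Complexes I, III, IV and the ATP synthase combine subunits encoded in mitochondria with many more encoded in the nucleus, while all of complex II is nuclear. Assembly factors insert cofactors and hold intermediates, and leave the finished complex.

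Depth was 4082244 and 5066069 uniquely mapped reads over annotated junctions in the SF3B1 K700E libraries, against 3415281 and 3516156 in the wild-type libraries. The labels call the cells epithelial. Erythroid markers were well covered, with GATA1 at 314 and 675 reads in SF3B1 K700E against 498 and 403 in wild type, whereas 5 of 12 epithelial markers (CDH1, KRT5, ESRP1, GRHL2 and OCLN) had no read in any library. Summed over the list, the 14 erythroid markers had 3254 and 5061 CPM (reads over annotated junctions, made comparable between libraries by TMM) in SF3B1 K700E and 3181 and 4083 CPM in wild type, and the 12 epithelial markers 349.9 and 443.6 CPM in SF3B1 K700E against 485.7 and 374.3 CPM in wild type. The part of either list in the results below was not tested. SF3B1 itself had 845.4 and 701.9 CPM in SF3B1 K700E and 896.7 and 1016 CPM in wild type, a log2 difference of -0.31 ± 0.22 (SE, edgeR adjusted p 0.747). The allele itself was not read, because the files hold no bases. Nothing in the labels says that replicates came from separate cultures, so p-values measure only the spread between these libraries.

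Most members were spliced and counted. Reads over annotated junctions were found for 107 genes, and 96 had enough reads for the gene test. ATP5MGL, SDHAF1 and UQCRHL have no annotated intron and cannot give a junction read. The heart, muscle, lung or testis forms of complex IV subunits COX4I2, COX6A2, COX7A1 and COX8C had no read at all. The testis forms were close to that, with COX7B2 at 1 and 2 reads in SF3B1 K700E and 2 and 5 in wild type, and COX6B2 at 0 and 0 in SF3B1 K700E against 0 and 2 in wild type. Another 9 genes had reads but too few to be tested: NDUFA7, NDUFA13, NDUFB8, SDHAF2, SDHAF3, UQCR10, UQCC3, COX14 and COX16. The widely expressed counterparts of the tissue forms, COX4I1, COX6A1, COX6B1, COX7A2 and COX8A, were all tested.

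Levels are given as CPM per intron of the main transcript, which allows comparison between genes with few and many introns. The highest levels were those of ATP5F1B, the catalytic beta subunit, at 50.005 ± 0.749 CPM per intron in SF3B1 K700E and 53.2 ± 3.86 in wild type (SD, n = 2 each). UQCRH, the hinge protein that helps cytochrome c dock on complex III, had 32.2 ± 2.43 CPM per intron in SF3B1 K700E and 42.0 ± 1.63 in wild type, and its groups did not overlap. Then came ATP5F1A, the alpha subunit, at 28.0 ± 0.855 in SF3B1 K700E and 26.5 ± 2.63 in wild type, and ATP5PB of the peripheral stalk at 24.5 ± 2.48 and 22.9 ± 0.124. COX4I1 of complex IV had 21.2 ± 0.0146 in SF3B1 K700E and 24.6 ± 4.41 in wild type, and NDUFB9 of complex I had 21.98 ± 0.285 and 23.8 ± 1.06, so that neighbours in this order from ATP5F1A down lay within or close to each other's spread. NDUFA13, an accessory complex I subunit, stood as high as UQCRH at 27.2 ± 11.1 CPM per intron in SF3B1 K700E and 44.3 ± 6.52 in wild type, but nearly all of its reads lie over introns shared with another annotated gene, so it was not in the gene test. At the low end of the tested genes were NDUFA4L2 (0.793 ± 0.497 in SF3B1 K700E and 0.380 ± 0.219 in wild type), COX18, ATP5S, NDUFAF1, NDUFB1 and NDUFAF8, the last 5 between 0.713 and 1.502 CPM per intron over all libraries. Median levels over the 4 libraries were 11.5 CPM per intron for the tested complex IV subunits, 11.001 for complex III, 9.91 for the ATP synthase, 5.38 for complex II and 4.86 for complex I. Medians of assembly factors were lower, at 2.06 for complex I, 2.07 for complex II (1 tested gene), 4.55 for complex III (2 tested genes) and 3.83 for complex IV.

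**Figure D1:**
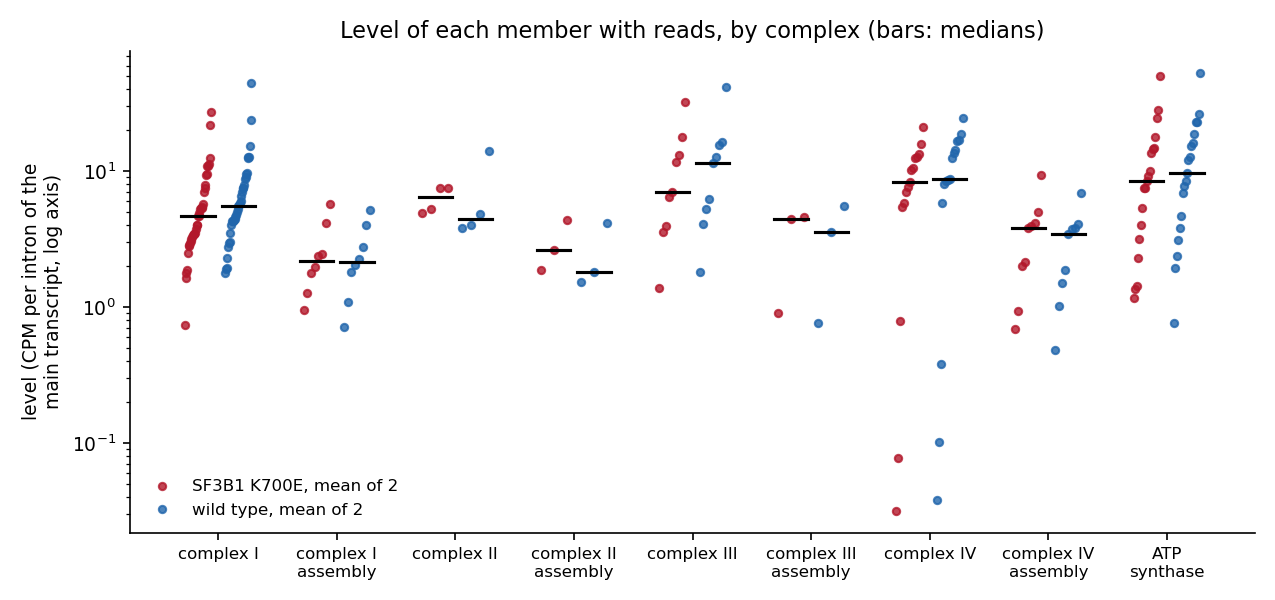
Level of each member with reads, in CPM per intron of its main transcript on a log axis, by complex, with SF3B1 K700E at the left of each pair and wild type at the right. Points are means of 2 libraries and bars are medians over genes. The ATP synthase subunit ATP5F1B is highest at 50.005 in SF3B1 K700E and 53.2 in wild type, and the medians of assembly factors lie below those of the subunits of complexes I, III and IV in both genotypes.

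As a whole, the members took 0.412% and 0.401% of annotated-junction reads in SF3B1 K700E and 0.446% and 0.438% in wild type. The groups did not overlap, and the difference of -0.035 percentage points reached the smallest p that 4 libraries allow (exact permutation test, 2-sided, p 0.333). Complex I had 0.123% ± 0.00465 of reads in SF3B1 K700E and 0.140% ± 0.0104 in wild type (SD, n = 2 each), and complex IV 0.0341% ± 0.00229 and 0.0401% ± 0.00264 (exact p 0.333 for each).

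No member passed the gene test at an adjusted p of 0.05, where 0.933% of the 10827 genes tested passed. By unadjusted p under 0.05 there were 5 of 96 members, against 10.1% of all genes. DESeq2 called 1 member, SDHA (background 2.00%), and limma voom none (background 0.702%). A replicate block with crossed numbers, tried after the data were seen, called SDHA and NDUFS6, which is 2 of 96 (background 4.25%). Members were more often lower than higher in SF3B1 K700E: both K700E libraries lay below both wild-type libraries for 30 of 96 (background 20.1%) and above them for 12 of 96 (background 19.4%). The median log2 difference of members was -0.18, with quartiles of -0.39 and 0.13, and 60 of 96 (62.5%) were below 0. Over all genes tested the median was 0.00, with quartiles of -0.27 and 0.24, and 49.6% were below 0. In bulk libraries, less RNA per cell and fewer cells that make it cannot be told apart.

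Medians of subunits and of assembly factors lay on different sides of 0. The 78 tested subunits had a median log2 difference of -0.22, with 30 (38.5%) lower and 5 (6.41%) higher in both K700E libraries. The 18 assembly factors had a median of 0.18, with 7 (38.9%) higher and none lower. Of those 7, COX15 and COX19 overlapped between genotypes once introns shared with other annotated genes were counted. Among 28 tested factors outside the symbol rule, most of them also of assembly, 9 were higher and 7 lower, with a median of 0.05. Over all genes tested 20.1% were lower and 19.4% higher, which is also the background for the counts per complex below. Leaving out 1 library at a time, the median of the subunits lay between -0.27 and -0.17, but that of the assembly factors was -0.0008 without wild-type replicate 1 and 0.17 to 0.32 without any of the others. The difference between the kinds was not tested, and none of these genes passed on its own. Subunit genes are also short: the median span was 12.6 kb for tested subunits and 21.0 kb for assembly factors, against 36.8 kb for all genes tested. Among genes under 10 kb, the 37 members had a median log2 difference of -0.29 and 15 (40.5%) were lower in both K700E libraries, whereas the 1537 other genes of that span had a median of -0.07 and 22.1% were lower. From 10 to 50 kb the 49 members had a median of 0.02, as did the 4875 other genes. The part of gene length in the members' values was not tested, and these spans were chosen after the values were seen.

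**Figure D2:**
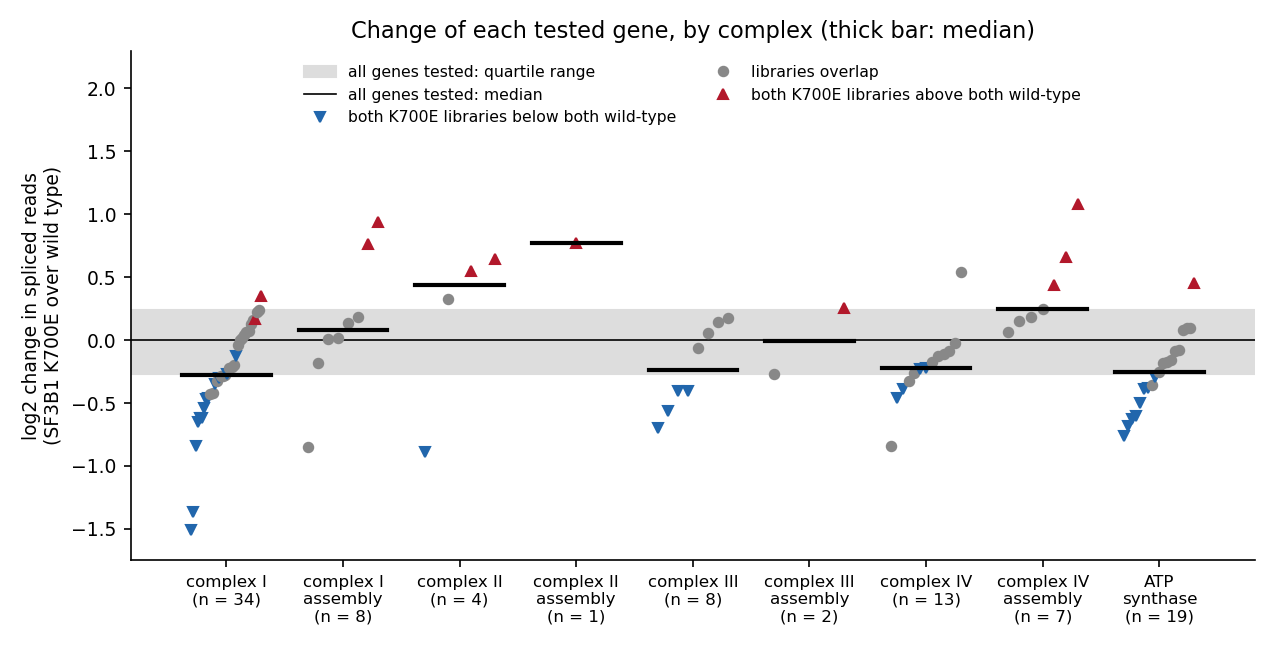
Log2 difference in spliced reads, SF3B1 K700E over wild type, for each of the 96 tested members by complex. Triangles mark genes whose libraries do not overlap, thick bars are medians, and the grey band is the quartile range of all genes tested. Subunits of complexes I, III and IV and of the ATP synthase have medians below 0, and assembly factors of complex IV all lie above 0.

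In complex I, which oxidises NADH, 24 of the 34 tested genes had a log2 difference below 0 (median -0.27), with 13 lower and 2 higher in both K700E libraries. NDUFS6 (chromosome 5, 1801400 to 1816605), the zinc-carrying accessory subunit of the peripheral arm, had 5.30 and 13.1 CPM in SF3B1 K700E and 24.1 and 24.1 CPM in wild type. Both K700E libraries were low but differed from each other, and the log2 difference was -1.37 ± 0.42 (SE, edgeR adjusted p 0.220). NDUFB1, a small membrane-arm subunit, had 1.26 and 1.66 CPM in SF3B1 K700E against 4.58 and 3.91 CPM in wild type, which is 5 and 8 reads in SF3B1 K700E against 15 and 13 in wild type (log2 difference -1.51 ± 0.60, adjusted p 0.399). NDUFB11, an X-linked membrane-arm subunit, had 20.4 and 18.1 CPM in SF3B1 K700E against 29.95 and 29.2 CPM in wild type (log2 difference -0.62 ± 0.29, adjusted p 0.513). For these 3 genes the groups did not overlap. The same held for other small accessory subunits. NDUFB10 had 10.1 and 12.5 CPM in SF3B1 K700E and 18.6 and 16.8 CPM in wild type, NDUFS5 12.1 and 12.9 CPM in SF3B1 K700E against 18.03 and 20.4 CPM in wild type, and NDUFA11, which braces the membrane arm, 3.78 and 3.33 CPM in SF3B1 K700E against 7.64 and 5.11 CPM in wild type (adjusted p 0.585, 0.585 and 0.671). The large subunit NDUFS1, which carries iron-sulfur clusters, had 178.4 and 165.1 CPM in SF3B1 K700E and 155.9 and 171.1 CPM in wild type. NDUFV1, where NADH binds, had 95.1 and 137.0 CPM in SF3B1 K700E and 177.3 and 106.1 CPM in wild type. For both genes the groups overlapped.

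Among the complex I assembly factors, NDUFAF5, which hydroxylates an arginine of NDUFS7 during assembly, had 29.3 and 20.8 CPM in SF3B1 K700E and 12.2 and 13.8 CPM in wild type. All of its K700E values were above both wild-type values, with a log2 difference of 0.94 ± 0.33 (adjusted p 0.305). NDUFAF1, a chaperone of early intermediates, had 5.80 and 7.07 CPM in SF3B1 K700E against 2.75 and 4.81 CPM in wild type (adjusted p 0.712). The other 6 factors overlapped between genotypes.

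Complex II, succinate dehydrogenase, had its subunits on both sides. SDHA (chromosome 5, 218241 to 256700), the flavoprotein that oxidises succinate, had 108.2 and 109.8 CPM in SF3B1 K700E and 221.9 and 182.5 CPM in wild type. The K700E libraries agreed closely and lay far below both wild-type libraries, with a log2 difference of -0.89 ± 0.23, the smallest unadjusted p of the members at 0.00277 and an adjusted p of 0.118. Adjusted p for SDHA ranged from 0.0124 to 0.378 over alternatives that kept all libraries. SDHB, the iron-sulfur subunit, had 56.5 and 49.5 CPM in SF3B1 K700E and 31.5 and 36.4 CPM in wild type (log2 difference 0.64 ± 0.26, adjusted p 0.427). SDHC, a membrane anchor, had 32.5 and 29.7 CPM in SF3B1 K700E against 19.9 and 22.5 CPM in wild type (log2 difference 0.55 ± 0.28, adjusted p 0.585), and SDHD, its partner, 5.55 and 4.78 CPM in SF3B1 K700E against 5.20 and 3.01 CPM in wild type. SDHB and SDHC were thus above, and SDHA below, both wild-type libraries. SDHAF4, which assists the flavinated SDHA, had 5.55 and 5.41 CPM in SF3B1 K700E against 4.58 and 1.80 CPM in wild type.

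SDHA and NDUFS6 share a chromosome arm. Of the 90 tested genes on chromosome 5 before 46 Mb, 80 had a log2 difference below 0, 66 were lower in both K700E libraries, and the median was -0.78. Within 2 Mb of SDHA, 16 of 17 tested neighbours were below 0 with a median of -1.03, and NDUFS6 had 16 of 17 with a median of -0.91. These 2 windows overlap and each gene is counted among the neighbours of the other, so they are not separate observations. Around NDUFB1 (chromosome 14) only 7 of 20 neighbours were below 0, and around SDHB 14 of 20, with medians of 0.03 and -0.06. DNA copy number was not measured, and its part in these values was not tested. SDHA also has pseudogene copies, and 10.5% of the reads over its annotated junctions were multiply mapped and not counted.

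**Figure D3:**
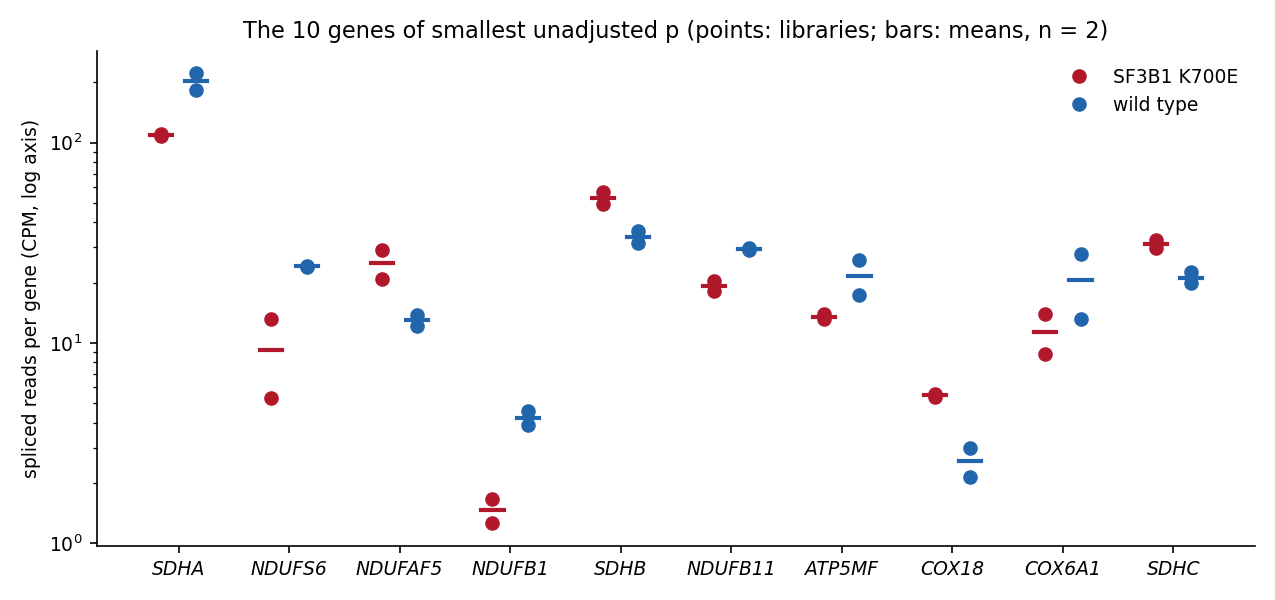
Spliced reads per gene in CPM on a log axis for the 10 members of smallest unadjusted p, with SF3B1 K700E left and wild type right in each pair. Points are libraries and bars are means of 2. SDHA sits at 108.2 and 109.8 CPM in SF3B1 K700E, below 221.9 and 182.5 CPM in wild type, and SDHB, SDHC, NDUFAF5 and COX18 lie the other way.

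In complex III, 4 of 8 tested genes were lower in both K700E libraries and none was higher (median log2 difference -0.23). Those 4 were small subunits: UQCRH (96.9 and 109.0 CPM in SF3B1 K700E, 139.7 and 132.9 CPM in wild type), UQCRB, UQCR11 and UQCRQ, with adjusted p between 0.632 and 0.738. Of the assembly factors, UQCC2 had 14.6 and 12.3 CPM in SF3B1 K700E and 12.2 and 10.2 CPM in wild type, and UQCC1, which acts with it on newly made cytochrome b, had 51.97 and 36.4 CPM in SF3B1 K700E against 51.96 and 54.4 CPM in wild type. The core subunits UQCRC1 and UQCRC2 and the haem carrier CYC1 overlapped between genotypes, with log2 differences of 0.18, 0.15 and 0.06. In complex IV, 12 of 13 tested subunits had a log2 difference below 0 (median -0.22), and 4 were lower in both K700E libraries: COX4I1, COX5B, COX6B1 and COX7A2L. COX5B, which binds zinc on the matrix side, had 41.4 and 35.8 CPM in SF3B1 K700E and 53.8 and 47.2 CPM in wild type (adjusted p 0.721). COX7A2L, which joins complexes III and IV in supercomplexes, had 14.1 and 9.36 CPM in SF3B1 K700E against 16.5 and 15.6 CPM in wild type (adjusted p 0.770). COX6A1 had the lowest log2 difference of the tested complex IV genes, with 8.83 and 13.9 CPM in SF3B1 K700E against 27.8 and 13.2 CPM in wild type. Its groups overlapped, and the difference of -0.84 ± 0.42 (adjusted p 0.565) was -0.21 without wild-type replicate 1. All 7 tested complex IV assembly factors were above 0 (median 0.24). Of these COX18, COX15 and COX19 were higher in both K700E libraries by reads over introns of 1 gene. COX18, the translocase that moves the COX2 tail across the inner membrane, had 5.55 and 5.41 CPM in SF3B1 K700E and 2.14 and 3.01 CPM in wild type (log2 difference 1.08 ± 0.53, adjusted p 0.548). COX15, which makes haem A, had 7.06 and 4.99 CPM in SF3B1 K700E and 3.36 and 4.21 CPM in wild type, and COX19, a factor of copper delivery, 17.9 and 19.8 CPM in SF3B1 K700E against 12.2 and 15.6 CPM in wild type. These values leave out introns shared with other annotated genes, which hold most of the COX15 reads. With them COX15 had 3.94 and 3.64 CPM per intron in SF3B1 K700E and 2.83 and 4.02 in wild type, so its groups overlapped. COX19 then had 77 and 112 reads in SF3B1 K700E against 78 and 74 in wild type, and overlapped too. COX10, which acts before COX15 on haem, and the copper chaperone COX17 overlapped between genotypes, at 27.2 and 21.004 CPM in SF3B1 K700E against 21.1 and 24.95 CPM in wild type and at 12.4 and 8.73 CPM in SF3B1 K700E against 7.95 and 10.5 CPM in wild type.

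In the ATP synthase, 15 of 19 tested genes had a log2 difference below 0 (median -0.25), with 8 lower and 1 higher in both K700E libraries. The higher one was ATP5S, also named DMAC2L, a factor of ATP synthase assembly and regulation. By its symbol it is counted with the subunits throughout. The 8 were ATP5MG, ATP5MC2, ATP5F1E, ATP5MF, ATP5PF, ATP5MC1, ATP5MPL and ATP5MD, all small subunits of the membrane part or of the stalks. ATP5MF, the f subunit, had 13.9 and 13.1 CPM in SF3B1 K700E and 25.98 and 17.4 CPM in wild type (log2 difference -0.69 ± 0.33, adjusted p 0.542). Without wild-type replicate 1 the difference was -0.37. The c subunit of the proton-driven ring is encoded by 3 genes, of which ATP5MC1 had 11.1 and 11.9 CPM in SF3B1 K700E against 19.3 and 16.2 CPM in wild type, ATP5MC2 54.5 and 44.5 CPM in SF3B1 K700E against 70.0 and 58.9 CPM in wild type, and ATP5MC3 62.6 and 46.8 CPM in SF3B1 K700E against 51.3 and 72.5 CPM in wild type. Only ATP5MC3 overlapped between genotypes. ATP5F1A and ATP5F1B, which form the catalytic head, differed by 0.08 and -0.08 on the log2 scale.

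Copies elsewhere in the genome took few of the members' reads. Multiply mapped reads were 0.995% and 1.04% of the reads over members' annotated junctions in SF3B1 K700E and 1.08% and 1.04% in wild type (exact p 0.667), against 8.0% to 9.0% over all annotated junctions. The genes with the largest shares over the 4 libraries were COX17 (12.3%), SDHA (10.5%), ATP5MC2 (9.14%), UQCRFS1 (8.96%) and NDUFB1 (6.82%), and their values are less certain for it.

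Splice site choice was read at 1231 junctions that touch a member's annotated site, 789 annotated and 442 not. Of the unannotated ones 220 had 1 unique read in all, and 16 in 11 genes had at least 10. Unannotated junctions took 1.86% and 1.92% of the members' junction reads in SF3B1 K700E (95% Wilson intervals 1.67% to 2.08% and 1.74% to 2.11%) and 1.28% and 1.22% in wild type (1.12% to 1.47% and 1.06% to 1.40%). The groups did not overlap (difference 0.637 percentage points, exact p 0.333). The difference was 0.178 percentage points over junctions with at least 10 reads and 0.0930 for unannotated junctions with both ends at annotated sites. Over all junctions of the libraries the unannotated share was 4.84% and 4.51% in SF3B1 K700E and 4.37% and 4.33% in wild type. That share may include junctions with no end at an annotated site, so its level cannot be set against that of the members.

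Acceptor use was compared among junctions that leave the same 5′ splice site (donor), as each junction's share of its cluster. None of the 77 member junctions, in 38 clusters of 27 genes, passed edgeR's test, where 0.137% of 23366 junctions passed. Unadjusted p was under 0.05 for 4 of the 77, and limma's diffSplice called none (background 0.0642%). The share of all junctions under that unadjusted p was not counted, so the 4 have no background to be set against. Shares were higher in both K700E libraries for 10 (background 19.0%) and lower for 10 (background 18.6%). All 4 junctions with unadjusted p under 0.05 had no read in wild type. They reached the minimum of 10 reads on SF3B1 K700E reads alone, so that some difference was built into their selection.

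The largest of them lay in ATP5F1C (chromosome 10, 7788129 to 7807815, GRCh38), which encodes the gamma subunit, the central shaft that turns inside the catalytic head. Intron 4 of 8 runs from 7799195 to 7799771. In SF3B1 K700E an unannotated acceptor that ends the intron at 7799590, 181 nt upstream of the annotated one, had 12 of 40 and 17 of 56 cluster reads, which is 30% (18.1% to 45.4%) and 30.4% (19.9% to 43.3%). In wild type it had 0 of 27 in each library, and 0 of 54 allows a share of up to 5.56%. The mean of 30.2% ± 0.253 (SD, n = 2) in SF3B1 K700E was 5.43 times that bound, and the site had an adjusted p of 0.0546. With a minimum of 20 reads per junction it passed (adjusted p 0.0134), where 0.420% of 10473 junctions did, and over alternatives with all libraries the adjusted p ranged from 0.0134 to 0.983. The site met that higher minimum too on SF3B1 K700E reads alone (29, against 0 in wild type), so some difference was again built into its selection. A second site at 7799600, 171 nt upstream, had 6 and 4 reads in SF3B1 K700E and none in wild type (11.1% ± 5.56, adjusted p 0.768). The annotated acceptor had 22 and 35 reads in SF3B1 K700E and 27 and 27 in wild type, so its share was 58.8% ± 5.30 in SF3B1 K700E against 100% in both wild-type libraries.

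Other reads in that intron also came from SF3B1 K700E alone. Sites 188 nt and 27 nt upstream had 0 and 3, and 1 and 1 reads. A junction from 7799684 to the annotated acceptor at 7799771 had 1 and 6 reads, and with the sites at 7799590 and 7799600 it would enclose exons of 93 and 83 nt. In all, 5 unannotated junctions held 20 and 31 reads in SF3B1 K700E and 0 and 0 in wild type. An exon of 93 nt keeps the reading frame by length and one of 83 nt does not. Whether reads entering at these sites leave by the inner donor cannot be told from junction counts. Over the whole gene ATP5F1C had 100.4 and 107.9 CPM in SF3B1 K700E and 71.5 and 123.6 CPM in wild type (log2 difference 0.09, adjusted p 0.975).

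**Figure D4:**
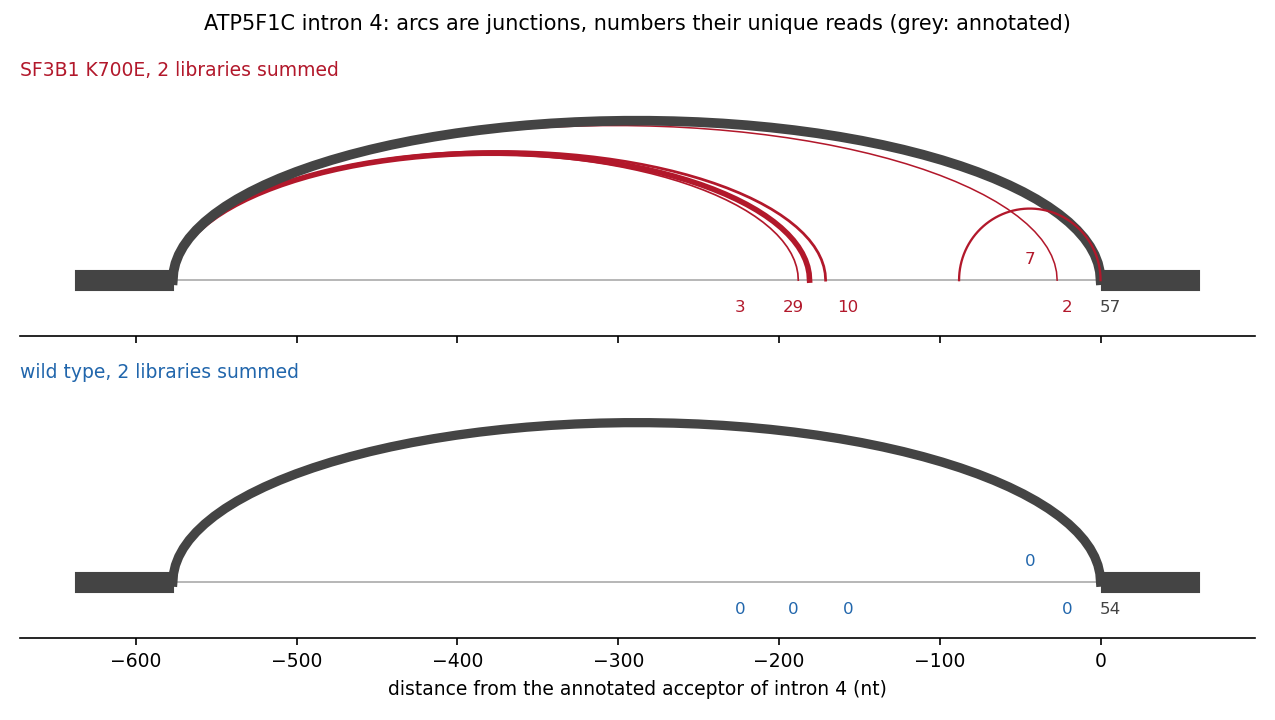
Junctions within intron 4 of ATP5F1C, by distance in nt from its annotated acceptor, with SF3B1 K700E above and wild type below, each the sum of 2 libraries. Arcs are junctions, thicker with more reads, grey where annotated, and numbers are unique reads, with the flanking exons drawn in part. The sites 181 and 171 nt upstream have 29 and 10 reads in SF3B1 K700E and 0 in wild type, where the annotated junction has 57 and 54 reads.

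In NDUFV1 (chromosome 11, 67605653 to 67612554), the flavin subunit where NADH is oxidised, an annotated but rarely used acceptor of intron 3 lies 26 nt upstream of the main one. The intron from 67608723 to 67609425 had 7 and 7 reads in SF3B1 K700E, 8.14% (4.00% to 15.9%) and 6.09% (2.98% to 12.03%) of its cluster. In wild type it had 0 of 78 and 0 of 49 reads, which allows up to 2.36%. The mean of 7.11% ± 1.45 (SD, n = 2) in SF3B1 K700E was 3.01 times that bound (adjusted p 0.506). The spliced sequences are shown because the site adds bases to the coding sequence. They come from GENCODE transcripts that hold each acceptor, on the plus strand, with exon 3 at the left of the joint and the added bases in capitals.
Upstream acceptor: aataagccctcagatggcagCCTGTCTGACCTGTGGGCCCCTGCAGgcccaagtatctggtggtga
Main acceptor: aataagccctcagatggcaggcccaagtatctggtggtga
The added bases end in the AG of the main acceptor. Placed in the main transcript, they would shift the frame and end the 464-codon reading frame after 123 codons, 962 nt before the last exon junction.

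NDUFB8 (chromosome 10, 100523740 to 100530000), a membrane-arm subunit, had an unannotated acceptor 20 nt upstream in intron 2. The intron from 100527095 to 100529379 had 2 of 43 and 10 of 76 reads in SF3B1 K700E, 4.65% (1.28% to 15.5%) and 13.2% (7.31% to 22.6%), against 0 of 55 and 0 of 59 in wild type, which allows up to 2.63%. The mean of 8.90% ± 6.02 (SD, n = 2) in SF3B1 K700E was 3.38 times that bound, with K700E replicate 2 holding most of the reads (adjusted p 0.476). The interval of K700E replicate 1 reached below the bound. This was the only unannotated acceptor of members that lay 10 to 30 nt upstream with at least 10 reads. Over all genes there were 229 such sites, and at 62.0% of them the share was higher in both K700E libraries. With sites of at least 1 read, members had 10 in 8 genes, which took 2.29% and 4.08% of the reads in SF3B1 K700E and 0.581% and 0.508% in wild type (exact p 0.333). A second site of the NDUFB8 locus, 17 nt upstream in an intron that joins NDUFB8 to downstream exons, had 3 and 3 reads in SF3B1 K700E and none in wild type. NDUFB8 shares these introns with the annotated gene AL133352.1, so the reads cannot be given to 1 of them, and for that reason its own count was too low for the gene test.

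Donor use, among junctions that share an acceptor, gave no call among 77 member junctions in 37 clusters of 29 genes (background 0.0087% of 22976), with 2 at unadjusted p under 0.05 in edgeR and none called by limma's diffSplice. The share of all junctions under that unadjusted p was not counted here either. Shares were higher in both K700E libraries for 12 (background 18.5%) and lower for 13 (background 18.4%). The largest difference in share without overlap of the groups was in ATP5MF, whose first exon ends at 1 of 2 annotated donors 18 nt apart. The longer form had 6 and 5 reads in SF3B1 K700E and 20 and 15 in wild type, or 21.1% ± 7.04 and 49.7% ± 12.9 of the cluster (SD, n = 2 each, adjusted p 1.00). Libraries did not overlap. Exon 2 of NDUFB8 also ends at a pair of annotated donors, where the form longer by 14 nt had 5 and 4 reads in SF3B1 K700E against 13 and 14 in wild type, or 8.29% ± 3.65 in SF3B1 K700E against 19.1% ± 0.0427 in wild type (adjusted p 1.00). The longer and shorter spliced forms from GENCODE, read on the minus strand from the coding start in ATP5MF, show what each donor adds, in capitals.
ATP5MF longer: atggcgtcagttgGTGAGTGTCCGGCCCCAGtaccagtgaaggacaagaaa
ATP5MF shorter: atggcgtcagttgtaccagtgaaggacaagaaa
NDUFB8 longer: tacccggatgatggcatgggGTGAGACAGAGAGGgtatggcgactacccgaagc
NDUFB8 shorter: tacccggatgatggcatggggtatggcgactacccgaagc
Both additions begin with GTGAG, the letters that follow the shorter exon at its own donor. The 18 added bases in ATP5MF are a multiple of 3 and coding in 2 of the 3 transcripts that hold them, and the 14 in NDUFB8 are not a multiple of 3.

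Other junctions skipped an exon. In ATP5F1B the junction that skips exon 2 (183 nt, all coding) had 10 and 11 reads in SF3B1 K700E and 2 and 2 in wild type, 3.56% ± 0.238 in SF3B1 K700E against 0.775% ± 0.103 of its cluster in wild type (SD, n = 2 each). It had the smallest unadjusted p of the donor test at 0.00915, and an adjusted p of 1.00. In SDHC the junction that skips exon 3 (102 nt, all coding) had 8 and 11 reads in SF3B1 K700E against 3 and 3 in wild type, or 39.6% ± 0.505 in SF3B1 K700E against 20.0% ± 7.07 in wild type. In UQCRC1 an unannotated junction that skips exon 10 (86 nt) had 5 and 10 reads in SF3B1 K700E and 10 and 4 in wild type, 20.6% ± 0.903 in SF3B1 K700E against 33.2% ± 3.497 in wild type. The groups did not overlap in any of the 3 when compared with junctions of the same acceptor. Compared with junctions of the same donor, the ATP5F1B skip again did not overlap (10.1% ± 0.753 in SF3B1 K700E, 3.59% ± 0.363 in wild type). The SDHC skip overlapped there (33.8% ± 14.5 in SF3B1 K700E, 27.5% ± 3.54 in wild type), and so did the UQCRC1 skip, which was on average the higher one in SF3B1 K700E (33.5% ± 6.99, against 28.3% ± 16.5 in wild type). The acceptor cluster held 20 and 28 reads in SF3B1 K700E and 12 and 20 in wild type in SDHC, and 25 and 47 in SF3B1 K700E against 28 and 13 in wild type in UQCRC1. NDUFV2, with 44.1% ± 4.69 in SF3B1 K700E against 24.6% ± 0.536 in wild type at an annotated acceptor of intron 1, NDUFS3, ATP5MD and the second intron of ATP5MF completed the set of largest differences among junctions whose groups did not overlap. Larger mean differences with overlapping groups were left out by that rule, such as an NDUFS6 donor at 30.2% ± 28.0 in SF3B1 K700E and 8.35% ± 3.48 in wild type (SD, n = 2 each). NDUFV2 shares its site with AP005263.1, NDUFS3 with PTPMT1, and ATP5MF its second intron and both first-exon donors with the readthrough ATP5MF-PTCD1, with PTCD1 also annotated at the longer donor.

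**Figure D5:**
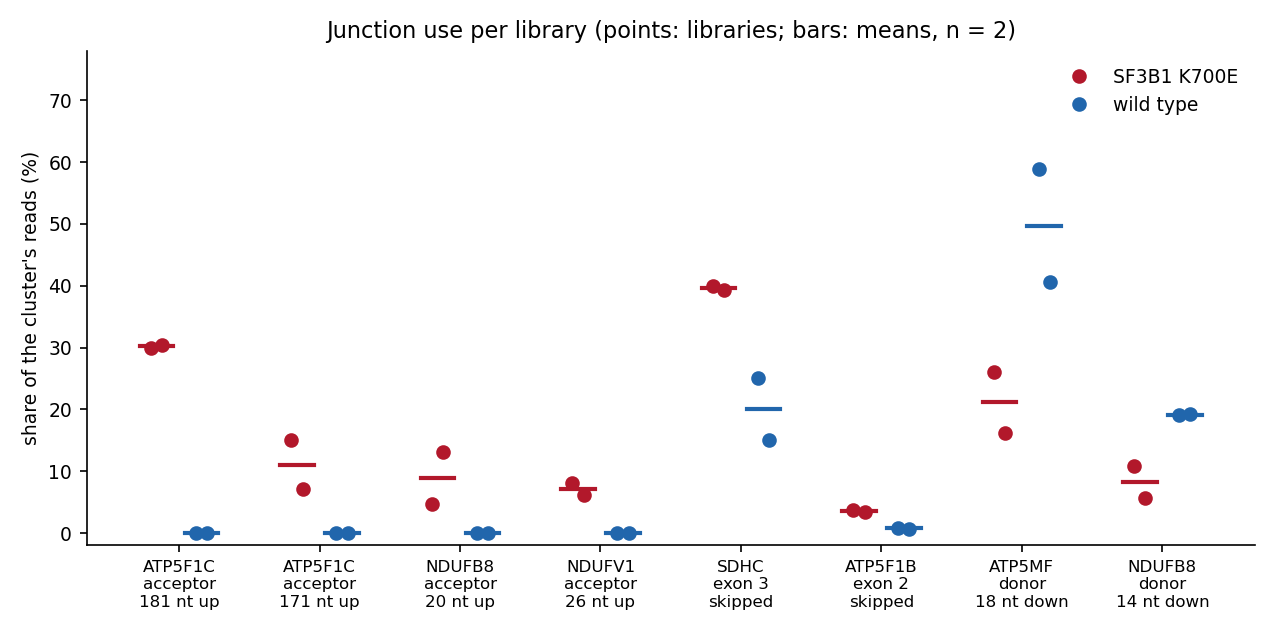
Share of cluster reads in percent at 8 junctions, with SF3B1 K700E left and wild type right in each pair. Points are libraries and bars are means of 2. The 4 acceptors at the left have 0% in both wild-type libraries and means of 30.2%, 11.1%, 8.90% and 7.11% in SF3B1 K700E, while the longer donors of ATP5MF and NDUFB8 are lower in SF3B1 K700E.

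Not every unannotated junction went with genotype. The most read one among members, in NDUFV3 from 42904277 to 42906839 on chromosome 21, had 16 and 27 reads in SF3B1 K700E and 17 and 13 in wild type. In SDHA, NDUFB7, NDUFS6 and NDUFAF6, unannotated junctions with 10 or more reads were all present in both genotypes.

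Another 37 factors of the chain that the symbol rule leaves out, such as the assembly factors ACAD9, SURF1, SCO1 and BCS1L and the electron carrier CYCS, gave 28 tested genes and no call by edgeR, DESeq2 or limma voom, with 2 at unadjusted p under 0.05. Of the 28 tested genes 9 were higher (background 19.4%) and 7 lower (background 20.1%) in both K700E libraries, and their median log2 difference was 0.05. The 2 genes were LYRM2, at 12.6 and 7.07 CPM in SF3B1 K700E and 3.97 and 4.21 CPM in wild type (adjusted p 0.374), and LYRM7, which guards the Rieske protein before its insertion into complex III, at 24.7 and 19.5 CPM in SF3B1 K700E against 5.50 and 15.3 CPM in wild type (adjusted p 0.427). Both were named after their values were seen.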

How the data were processed

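The deposited files hold counts of reads over splice junctions, uniquely and multiply mapped, with no normalization. The authors aligned read pairs to GRCh38.p12 with STAR 2.7.10a and GENCODE junctions, per the file headers of the run logs. The labels' protocols give polyA- and rRNA-depleted chromatin RNA. Unspliced RNA was not analysed here, and intron-poor genes have few reads. The single values of 1 member are not reported here. Members and lists were chosen with earlier results of these data known. Unique reads over annotated introns of 1 gene were summed per gene (GENCODE 29), filtered with filterByExpr, scaled by TMM and tested with the quasi-likelihood test of edgeR 4.0.16, adjusted by Benjamini-Hochberg over all genes. Junction shares used diffSpliceDGE in clusters with a common donor or acceptor (canonical motif, at least 10 reads, at least 2 junctions), adjusted over all junctions. Library shares used exact permutation over 6 assignments. Named genes were the 10 of smallest p, the 10 junctions of largest share difference per test among those with 20 cluster reads per group and no overlap between groups, the 6 highest and 6 lowest levels, genes without reads, and the 5 of highest multiply mapped share. Alternatives used DESeq2 1.42.0, limma 3.58.1, other filters and scalings, and each library left out. SE is the log2 difference over the root of F. A wild-type count of 0 was set to 3 reads over the group for bounds. Intervals cover counting error only, since PCR copies were not marked. Tests were checked on simulated counts.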

Additional observations from a re-analysis of the deposited data

How the results depend on the processing

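With 2 libraries per group and few reads at most minor junctions, only large differences could pass. The count of members called in the gene test was 0 in every alternative but 2: DESeq2 called 1 (SDHA, adjusted p 0.0448), and 2.00% of all genes, and a replicate block with crossed numbers, added after seeing the data, called 2 (SDHA and NDUFS6), and 4.25% of all genes. For acceptors it was 0 except with a minimum of 20 reads, which tested 30 member junctions of 10473 and called 1 (ATP5F1C, 181 nt upstream, adjusted p 0.0134), and 0.420% of all those junctions. That ATP5F1C junction met the minimum on SF3B1 K700E reads alone, so some difference was built into its selection. For donors the count of members called was 0 in all. The replicate block called 0 members in each test, and deviations of same-numbered libraries correlated at -0.205 over genes, so the numbers were not taken as pairs. Leaving out any 1 library gave 0 for each of these 3 counts. Under the same omission the difference in the share of upstream acceptors ranged from 4.65 to 13.2 percentage points, of unannotated reads from 0.605 to 0.670, of member reads from -0.0405 to -0.0300 and of multiply mapped reads from -0.0647 to -0.0182. The upstream share rests on 1 NDUFB8 site, which met the minimum of 10 reads on SF3B1 K700E reads alone. With 0 in wild type, the ends of its range are the shares of the 2 SF3B1 K700E libraries, and its side was fixed by selection. With TMM-scaled CPM the member share differed by -0.0406. Of 363 values of 33 named genes and junctions under alternatives, 359 kept their side of the threshold, 4 passed it, and none reversed. These 33 had been chosen from the same libraries for small p or for groups that did not overlap. A reversal was therefore unlikely from the start, and its absence is no separate support. The median log2 difference of subunits lay between -0.24 and -0.22 and of assembly factors between 0.17 and 0.22 over alternatives with all libraries. Over all genes tested the median log2 difference was 0.004 in the main fit and 0.007 with RLE in place of TMM scaling. Without SF3B1 K700E replicate 2, NDUFS6 had a log2 difference of -2.17, and without replicate 1 -0.87.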
